A study of Mus musculus with 63 samples.

Results

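The 10 circadian clock genes are described here in 4 cell populations sorted from mouse cortex after a burn or a sham procedure. The genes are Clock, Per1, Per2, Per3, Cry1, Cry2, Nr1d1, Nr1d2, Dbp and Tef, which were taken by their symbols with earlier results of these data known, and they are 10 of the 56980 gene identifiers in the deposited tables, of which 52073 could be given a symbol. Female C57BL/6J mice, 12 weeks old on arrival, received 2 viruses in both motor cortices, AAV5-CamKII-eGFP and AAV1-mDlx-NLS-mRuby2, so that burn and sham mice carried the same constructs. The mice were then given a burn over 7 to 8% of the body surface or a sham procedure, and were killed 5 weeks later. Cells were sorted by fluorescence, and the RNA of each population of each mouse was sequenced after removal of ribosomal RNA. CaMKII positive cells (eGFP) and CaMKII-mDlx double-positive cells (eGFP and mRuby2) came from the motor cortex, whereas ACSA2-positive cells, sorted as astrocytes, and CD11b-positive cells, sorted as microglia, came from cortex caudal to it. A difference between 2 populations from different regions can therefore not be told apart from a difference between the regions. The libraries used were 4 burn and 6 sham for CaMKII positive cells, 9 burn and 7 sham for double-positive cells, 9 burn and 8 sham for ACSA2-positive cells, and 8 burn and 7 sham for CD11b-positive cells, from 17 mice sequenced in 3 batches. Mice were kept on a light and dark cycle, and the time of day at which each was killed is not given in the sources used here.

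The mammalian clock is a feedback loop of transcription that runs in nearly every cell. CLOCK and its partner BMAL1 bind E-box sequences and switch on the Per and Cry genes, whose proteins accumulate and then repress CLOCK and BMAL1, so that transcript levels rise and fall over a day. A second loop runs through the nuclear receptors NR1D1 and NR1D2 (REV-ERB alpha and beta), which repress Bmal1 from sites they share with the ROR receptors, and the output factors DBP, TEF and HLF act on D-box sequences. In the brain, astrocytes, microglia and neurons each carry such a clock.

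The promoters of 4 members are shown because the results below turn on these genes and because each of the first 3 holds one of the sequences through which the loop is known to act. They run from 250 bases before to 50 bases after the annotated start (RefSeq, GRCm38.p6), and capitals mark the motif matches. In Per1 (chr11:69098699-69098998, plus strand) the capitals are an E-box, CACGTG, 166 bases before the start, and an AGGTCA half-site on the other strand, read TGACCT, 137 bases before it. In Per3 (chr4:151044616-151044915, minus strand) they are 2 copies of the D-box TTATGTAA, and in Nr1d1 (chr11:98775328-98775627, minus strand) an E-prime box, CACGTT on the other strand, read AACGTG. Dbp (chr7:45704997-45705296, plus strand) held none of the 4 motifs in this window.
Per1: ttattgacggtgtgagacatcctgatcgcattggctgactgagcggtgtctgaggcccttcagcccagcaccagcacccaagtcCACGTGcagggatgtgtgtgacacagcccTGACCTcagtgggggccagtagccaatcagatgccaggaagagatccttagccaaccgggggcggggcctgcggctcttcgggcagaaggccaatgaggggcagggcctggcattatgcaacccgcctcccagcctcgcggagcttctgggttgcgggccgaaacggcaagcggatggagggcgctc
Per3: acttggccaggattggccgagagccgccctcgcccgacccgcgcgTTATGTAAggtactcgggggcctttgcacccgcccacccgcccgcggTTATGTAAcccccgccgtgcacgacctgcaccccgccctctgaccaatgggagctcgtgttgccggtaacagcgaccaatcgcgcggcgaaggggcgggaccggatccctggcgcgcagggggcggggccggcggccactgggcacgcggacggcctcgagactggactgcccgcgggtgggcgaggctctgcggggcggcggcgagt
Nr1d1: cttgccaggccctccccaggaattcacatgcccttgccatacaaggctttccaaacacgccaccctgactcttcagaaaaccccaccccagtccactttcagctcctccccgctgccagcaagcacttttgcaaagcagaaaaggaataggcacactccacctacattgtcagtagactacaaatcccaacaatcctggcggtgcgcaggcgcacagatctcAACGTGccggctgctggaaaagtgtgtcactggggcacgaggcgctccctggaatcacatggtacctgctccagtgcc
Dbp: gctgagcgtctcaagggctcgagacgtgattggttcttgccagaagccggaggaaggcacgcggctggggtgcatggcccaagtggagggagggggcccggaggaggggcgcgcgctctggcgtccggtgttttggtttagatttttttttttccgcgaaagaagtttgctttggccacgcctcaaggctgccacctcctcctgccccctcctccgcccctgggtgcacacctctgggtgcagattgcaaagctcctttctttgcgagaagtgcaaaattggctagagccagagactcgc

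Entries existed for 9 of the 10 members, with 13 promoters in all (Per2 had none). Each motif was searched on both strands, and no 2 matches overlapped. The E-box was found in 4 of the 13 member promoters (Per1, Cry1 and both promoters of Tef) and in 7.15% of the 32851 promoters in the table. The E-prime box was found in 3 (Cry1, Cry2 and Nr1d1) against 4.69% of all promoters, the D-box in 1 (Per3) against 0.938%, and the AGGTCA half-site in 3 (Clock, Per1 and Nr1d2) against 16.3%.

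The 58 libraries used held between 13346143 and 134703744 counts in genes, and 0 counts would allow between 0.0223 and 0.225 CPM (each gene's counts scaled to a common library total), counting error only. The sorted populations were checked against marker genes. Summed CPM of 8 astrocyte markers had a median of 39283 in ACSA2-positive cells and 237 in CD11b-positive cells, and that of 8 microglia markers 84.5 and 24879, as the glial labels have it. The neuronal markers went against the other labels. CaMKII positive libraries held a median of 20107 CPM of astrocyte markers (range 12700 to 23482) and 106 CPM of 6 excitatory neuron markers (22.7 to 397), and double-positive libraries 19300 CPM of microglia markers (15729 to 29969) and 1.67 CPM of 6 inhibitory neuron markers (0.615 to 3.38). In the 16 double-positive libraries the inhibitory markers Slc32a1 and Lhx6 were each at 0 in 12, Dlx2 in 9, Dlx1 in 4, Gad1 in 1 and Gad2 in 0, with mean levels of 0.724 CPM for Gad1 and 0.572 CPM for Gad2. The populations are therefore called by their sort labels below, without the word neuron. In such bulk samples fewer cells of a type and less RNA per cell cannot be told apart.

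Every member was detected in every library used. The genes fell into 2 broad patterns over the populations: 8 members had their highest mean CPM in ACSA2-positive cells, followed by CaMKII positive cells, double-positive cells and CD11b-positive cells, whereas Clock and Per1 were lowest in ACSA2-positive cells. Per kilobase of exon, the scale on which genes can be compared with each other, Nr1d1 was the most abundant member in ACSA2-positive cells with a mean level of 95.5 CPM per kb, and in CD11b-positive cells it was the least abundant with 1.90 CPM per kb. Per1 was the most abundant member in both double-positive cells (56.2 CPM per kb) and CD11b-positive cells (53.4 CPM per kb).

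**Figure D1:**
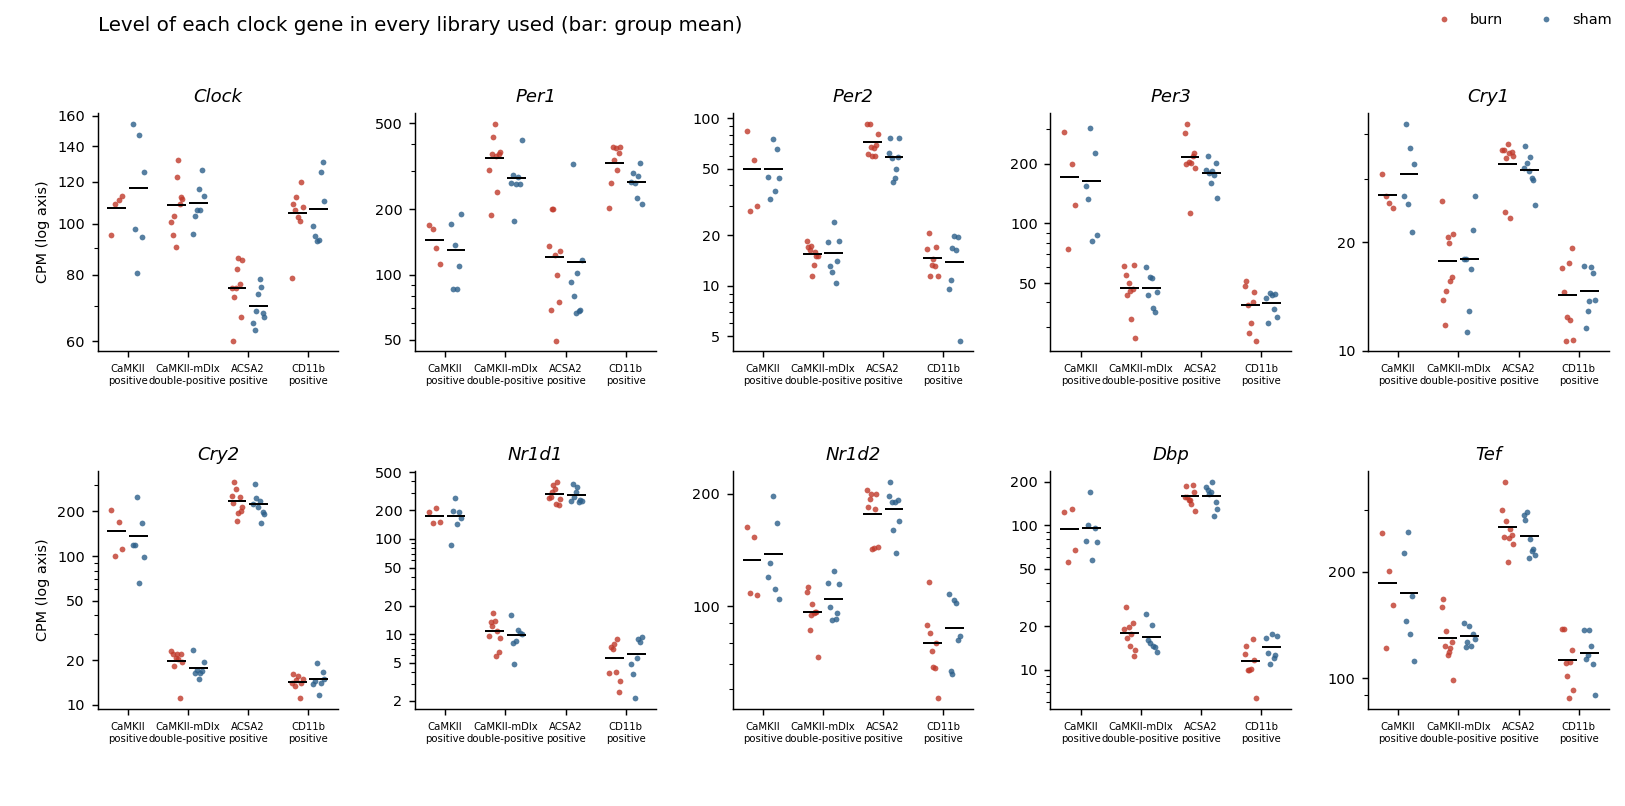
Level of the 10 clock genes in each library, in CPM on a log axis, by population (horizontal) and by burn or sham (point colour). Nr1d1, Cry2 and Dbp lie in separate bands for ACSA2-positive and CD11b-positive cells, whereas the libraries of all 4 populations lie between 60.1 and 154 CPM for Clock.

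Clock codes for the activating transcription factor of the loop. Its level was 80.8, 110 and 154 CPM (lowest, median and highest library, n = 10) in CaMKII positive cells, 90.4, 107 and 132 CPM (n = 16) in double-positive cells, 60.1, 73.8 and 86.2 CPM (n = 17) in ACSA2-positive cells and 78.8, 106 and 131 CPM (n = 15) in CD11b-positive cells. The ranges of CaMKII positive, double-positive and CD11b-positive cells lay across one another, while every double-positive library was above every ACSA2-positive library. With mouse as a block, Clock was higher in CD11b-positive than in ACSA2-positive cells by 0.44 ± 0.07 (log2FC ± SE; edgeR p.adj = 2.55e-05) and exceeded its ACSA2-positive level in CaMKII positive cells by 0.41 ± 0.10 (p.adj = 0.00467), in both cases below the 2-fold change that a call required here.

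Per1 and Per2 code for repressors of the loop, and Per1 is also known as an immediate response gene that can be induced within minutes by cell stimulation. Per1 ran from 85.5 to 191 CPM (median 135) in CaMKII positive cells, from 178 to 498 CPM (median 297) in double-positive cells, from 49.6 to 323 CPM (median 100.02) in ACSA2-positive cells and from 203 to 389 CPM (median 294) in CD11b-positive cells. Per1 was thus the only member whose mean was higher in both the double-positive and the CD11b-positive cells than in both other populations by more than 2-fold. It was higher in CD11b-positive than in ACSA2-positive cells by 1.59 ± 0.14 (log2FC; edgeR p.adj = 5.45e-09) and lower in CaMKII positive than in double-positive cells (log2FC = -1.44 ± 0.12, p.adj = 9.14e-08).

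Per2 was divided the other way, being higher in CaMKII positive and ACSA2-positive cells than in the other 2 populations. Its level was 28.1 to 83.6 CPM (median 44.3) in CaMKII positive cells and 42.0 to 93.0 CPM (median 61.9) in ACSA2-positive cells, against 10.4 to 24.0 CPM (median 15.4) in double-positive cells and 4.72 to 20.7 CPM (median 14.4) in CD11b-positive cells. The ranges of the first 2 populations did not meet those of the other 2. Per3, a further Period gene that is dispensable for the core loop, ran from 74.6 to 302 CPM (median 144) in CaMKII positive cells, from 114 to 319 CPM (median 199.97) in ACSA2-positive cells, from 26.5 to 61.7 CPM (median 46.2) in double-positive cells and from 25.7 to 51.3 CPM (median 40.3) in CD11b-positive cells. The spread of Per3 between CaMKII positive libraries, 50.1% of its mean, was the largest of any member in any population except Per1 in ACSA2-positive cells.

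Cry1 and Cry2 code for the cryptochromes, the main repressors of CLOCK and BMAL1. Cry1 was the less variable across populations, with mean levels of 29.5 ± 6.40 CPM (SD, n = 10) in CaMKII positive cells, 17.8 ± 4.67 CPM (n = 16) in double-positive cells, 32.5 ± 4.48 CPM (n = 17) in ACSA2-positive cells and 14.5 ± 2.77 CPM (n = 15) in CD11b-positive cells. Cry2 ran from 168 to 318 CPM (median 225) in ACSA2-positive cells and from 65.7 to 249 CPM (median 119) in CaMKII positive cells, whereas double-positive cells held 11.0 to 23.3 CPM (median 19.5) and CD11b-positive cells 11.1 to 19.1 CPM (median 14.6). Every library of the first 2 populations held more Cry2 than every library of the other 2.

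Nr1d1 and Nr1d2 code for the repressors REV-ERB alpha and REV-ERB beta. Nr1d1 gave the widest separation of all members, with 229, 277 and 399 CPM (lowest, median and highest) in ACSA2-positive cells and 86.2, 177 and 267 CPM in CaMKII positive cells against 4.83, 10.1 and 16.5 CPM in double-positive cells and 2.12, 5.63 and 9.43 CPM in CD11b-positive cells. The last of these rested on 37 counts in the library with the fewest. Nr1d2 ran from 139 to 215 CPM (median 190) in ACSA2-positive cells, from 104 to 198 CPM (median 125) in CaMKII positive cells, from 73.4 to 124 CPM (median 96.4) in double-positive cells and from 56.7 to 116 CPM (median 81.2) in CD11b-positive cells. The 2 REV-ERB genes thus differed in how far they were spread over the populations, by mean levels of 95.5 to 1.90 CPM per kb for Nr1d1 and of 33.1 to 15.4 CPM per kb for Nr1d2.

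Dbp and Tef code for output factors of the clock that bind D-boxes such as those capitalised in the Per3 promoter above. Dbp was at 116, 157 and 200.4 CPM in ACSA2-positive cells, at 55.8, 86.4 and 170.1 CPM in CaMKII positive cells, at 12.4, 16.3 and 27.2 CPM in double-positive cells and at 6.31, 12.52 and 17.6 CPM in CD11b-positive cells. Tef, in contrast, ran from 214 to 360.0 CPM (median 250.1), from 112 to 260 CPM (median 166), from 99.1 to 168 CPM (median 127) and from 87.8 to 138 CPM (median 114) in the same order. Only the ACSA2-positive range of Tef stood clear of those of the double-positive and CD11b-positive cells.

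Exons of 4 members overlap exons of another gene on the opposite strand, and whether the counting used strand is not given in the sources used here, so reads in these stretches may belong to either gene. The overlap is 18.0% of the exon bases of Dbp (539 bases, Sphk2), 8.55% of those of Nr1d1 (263 bases, Thra), 4.67% of those of Cry2 (D930015M05Rik) and 2.45% of those of Tef (Gm17597), in the GRCm38 annotation. Sphk2 had mean levels of 40.0 and 41.5 CPM in CaMKII positive and ACSA2-positive cells and 79.0 and 76.0 CPM in double-positive and CD11b-positive cells, so that it was higher in the 2 populations where Dbp was lower. Thra had 135, 127, 16.2 and 14.2 CPM, respectively, the same division as Nr1d1, and its part in the Nr1d1 counts was not tested.

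The first comparison asked how the clock genes differ between CD11b-positive and ACSA2-positive cells of the same 15 mice. Of the 10 members, 9 were called, which required a change of 2-fold or more (log2FC of 1 in either direction) with p.adj no greater than 0.05. Of these, 1 was higher in CD11b-positive cells (Per1) and 8 were higher in ACSA2-positive cells. Among all 30696 genes tested, 46.5% were called, 19.3% higher in CD11b-positive and 27.2% higher in ACSA2-positive cells. The repressor and output genes with the largest differences (CD11b minus ACSA2) were Nr1d1 (log2FC = -5.78 ± 0.19, edgeR p.adj = 1.08e-15), Cry2 (log2FC = -4.00 ± 0.09, p.adj = 6.36e-18) and Dbp (log2FC = -3.74 ± 0.09, p.adj = 1.74e-17). Per3 and Per2 followed with log2FC of -2.41 ± 0.08 and -2.29 ± 0.17, and Tef, Cry1 and Nr1d2 were close together at -1.25 ± 0.06, -1.24 ± 0.08 and -1.17 ± 0.08. The median log2FC was -1.77 over the members and -0.23 over all genes.

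Other genes of the clock were taken from a list of 21. Between CD11b-positive and ACSA2-positive cells, 2 of them were higher in CD11b-positive cells and 12 in ACSA2-positive cells. Those with the smallest p were the ROR receptor gene Rora (log2FC = -3.74 ± 0.10), the output factor gene Hlf (log2FC = -3.20 ± 0.08) and Rorb (log2FC = -8.87 ± 0.24), each at an edgeR p.adj of at most 5.92e-17. Rorb had a mean level of 1.58 CPM in CD11b-positive cells and 634 CPM in ACSA2-positive cells.

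**Figure D2:**
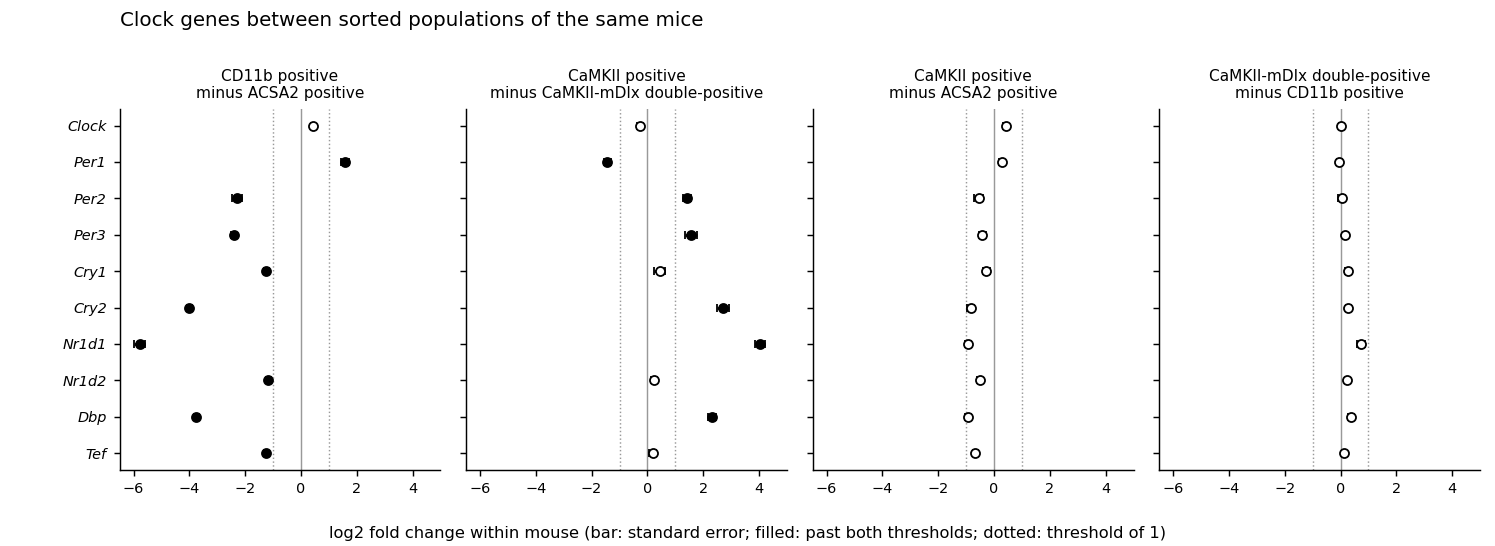
Difference in level (log2FC with SE, mouse as a block) of the 10 clock genes between 4 pairs of populations, with the call threshold of 1 in either direction. Values lie between -5.78 and 1.59 for CD11b-positive minus ACSA2-positive cells and between -1.44 and 4.04 for CaMKII positive minus double-positive cells, and the other 2 pairs stay inside the threshold.

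The motor cortex populations were compared in 9 mice that had both. Of the 10 members, 6 were called, 5 higher in CaMKII positive cells and 1, Per1, higher in double-positive cells, and of 29558 genes 35.5% were called, 20.0% higher in CaMKII positive and 15.5% higher in double-positive cells. The 5 were Nr1d1 (log2FC = 4.04 ± 0.19, edgeR p.adj = 1.58e-10), Cry2 (2.71 ± 0.22, p.adj = 5.65e-08), Dbp (2.31 ± 0.13, p.adj = 1.48e-09), Per3 (1.56 ± 0.21, p.adj = 1.40e-05) and Per2 (1.43 ± 0.15, p.adj = 9.10e-07). Clock (log2FC = -0.27 ± 0.11, p.adj = 0.0478), Cry1 (0.44 ± 0.19, p.adj = 0.0756), Nr1d2 (0.24 ± 0.11, p.adj = 0.0922) and Tef (0.19 ± 0.12, p.adj = 0.233) were not called. The median was 0.94 over the members and 0.07 over all genes. Scaling by library size alone moved the median of all genes to 0.26 and left the 6 calls in place. Of the list of 21, 13 were higher in CaMKII positive and 3 in double-positive cells, among them Rora (log2FC = 3.29 ± 0.13), the E-box repressor gene Bhlhe40 (5.20 ± 0.21) and Rorb (5.03 ± 0.23).

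CaMKII positive and ACSA2-positive cells of the same 10 mice, both with high astrocyte marker levels, were compared next. The CaMKII positive libraries also held more endothelial markers (median summed level 3566 CPM against 515 CPM) and microglia markers (929 CPM against 84.5 CPM), and the part of these in the differences was not tested. None of the 10 members was called, whereas 11.1% of 29746 genes were, and 9 members had a p.adj of at most 0.05 at any size, as had 22.6% of all genes (7 members with library-size scaling, 7 without the mouse block, and 6 without mouse 19). The 7 that were lower in CaMKII positive cells were led by Dbp (log2FC = -0.94 ± 0.11, edgeR p.adj = 2.07e-06) and Nr1d1 (-0.93 ± 0.12, p.adj = 2.92e-06), with Cry2 (-0.84 ± 0.12), Tef (-0.67 ± 0.10), Per2 (-0.54 ± 0.16), Nr1d2 (-0.51 ± 0.10) and Per3 (-0.43 ± 0.13) behind them. Clock and Per1 (0.28 ± 0.09, p.adj = 0.0304) were higher in CaMKII positive cells, and Cry1 was not separated (-0.27 ± 0.14, p.adj = 0.191). The members' median was -0.53 against 0.003 for all genes, and scaling by library size alone moved the latter to 0.14 and the former to -0.37. Without mouse 16, Dbp passed the 2-fold threshold at -1.002. Of the list of 21, 3 were higher in CaMKII positive and 2 in ACSA2-positive cells, among them Nampt, which codes for an enzyme of NAD synthesis (log2FC = 1.83 ± 0.15), and Rorb (-1.15 ± 0.13). This comparison and the first share their ACSA2-positive libraries.

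Double-positive and CD11b-positive cells, the pair that both held high microglia marker levels, were compared in 14 mice. None of the 10 members was called, against 3.88% of 28169 genes, and 4 members had a p.adj of at most 0.05 at any size, against 12.4% of genes (6 members with library-size scaling, 3 without the mouse block, 2 in batch 3 alone, and 3 to 5 when 1 mouse was left out). All 4 were higher in double-positive cells, Nr1d1 by 0.73 ± 0.14 (edgeR p.adj = 0.000872), Dbp by 0.39 ± 0.10 (p.adj = 0.0144), Cry2 by 0.27 ± 0.09 (p.adj = 0.0417) and Nr1d2 by 0.24 ± 0.06 (p.adj = 0.00645) on the log2 scale. Summed astrocyte markers were also higher in the double-positive libraries, with a median of 912 CPM against 237 CPM. Summed markers of border macrophages or monocytes were lower there, with a median of 95.6 CPM against 246 CPM. The part of either in these differences was not tested. The median log2FC was 0.21 over the members and 0.10 over all genes. Of the list of 21, only Rorb was called (log2FC = 2.74 ± 0.27).

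Counted by library and without a model, no member had separate ranges in either of these 2 pairs, where 6.28% and 0.278% of all genes did. Double-positive and ACSA2-positive libraries were apart for 8 members (24.5% of all genes), ACSA2-positive and CD11b-positive libraries for 8 (25.1%), CaMKII positive and CD11b-positive libraries for 7 (20.7%), and CaMKII positive and double-positive libraries for 5 (20.3%).

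The second question was whether the clock genes differed between burn and sham mice in any population. None of the 10 members was called in any of the 4 populations, and the edgeR test with batch as covariate called 0 genes in each, so that the percentage of all genes called was 0. At an unadjusted p under 0.05, 0 of 10 members passed in CaMKII positive cells (3.90% of all genes), 1 in double-positive cells (7.01%), 0 in ACSA2-positive cells (10.7%) and 3 in CD11b-positive cells (7.81%). These counts turned on single libraries: in CD11b-positive cells the count was 1 without sham mouse 16 and 2 without 8 of the other libraries in turn, in double-positive cells it was 0 without mouse 11, 15 or 20 and 2 without mouse 22, and in ACSA2-positive cells it was 1 without mouse 11, 12, 19 or 20. Without the batch term it was 1 in CD11b-positive and 0 in double-positive cells. DESeq2 likewise called no member, while it called 3, 2, 27 and 80 genes in these populations, respectively. The ranges of burn and sham libraries overlapped for all 10 members in every population, as they did for nearly all genes, with 0.370% of genes apart in CaMKII positive cells, 0 in double-positive cells, 0.0143% in ACSA2-positive cells and 0.0153% in CD11b-positive cells.

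Per1 had the lowest unadjusted p of any member. In CD11b-positive cells its level was 203, 350 and 389 CPM (lowest, median and highest) in 8 burn libraries and 211, 269 and 327 CPM in 7 sham libraries. The burn libraries held both the lowest and the highest value. The difference of burn minus sham was 0.37 ± 0.12 (log2FC ± SE; unadjusted p = 0.00586, edgeR p.adj = 0.639). In double-positive cells, Per1 was at 188, 361 and 498 CPM after burn and 178, 266 and 417 CPM after sham (log2FC = 0.44 ± 0.18, unadjusted p = 0.0244, p.adj = 0.708). In ACSA2-positive cells it was at 49.6, 123 and 202 CPM against 66.8, 85.999 and 323 CPM (log2FC = 0.18 ± 0.24, p.adj = 0.902), and without sham mouse 12, which held the highest value, the difference was 0.37 ± 0.21 (p.adj = 0.555).

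Dbp in CD11b-positive cells was at 6.31, 10.8 and 16.3 CPM in burn libraries and at 11.0, 13.1 and 17.6 CPM in sham libraries. The burn median lay below the lowest sham library, and the 2 ranges overlapped. The difference was -0.38 ± 0.19 (unadjusted p = 0.0495, edgeR p.adj = 0.639). Nr1d2 in the same cells was at 56.7, 77.9 and 116 CPM after burn and 65.9, 83.2 and 108 CPM after sham (log2FC = -0.27 ± 0.10, unadjusted p = 0.0168, p.adj = 0.639). In CaMKII positive cells the 4 burn libraries held 124, 55.8, 129 and 67.7 CPM of Dbp (mice 2, 20, 22 and 24) and the 6 sham libraries ran from 57.0 to 170.1 CPM with a median of 86.4 (log2FC = -0.05 ± 0.31). Mice 2 and 22 lay above the sham median and mice 20 and 24 below it.

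Per2 in ACSA2-positive cells was at 59.3, 67.8 and 93.0 CPM (lowest, median and highest) after burn and 42.0, 58.4 and 76.7 CPM after sham (log2FC = 0.24 ± 0.13, unadjusted p = 0.0698, edgeR p.adj = 0.511), and Per3 there was at 114, 203 and 319 CPM against 135, 182 and 219 CPM (log2FC = 0.17 ± 0.12, p.adj = 0.715). Over the 10 members the median log2FC of burn minus sham was -0.06 in CaMKII positive cells (0.02 over all genes), 0.003 in double-positive cells (-0.004), 0.06 in ACSA2-positive cells (0.05) and -0.11 in CD11b-positive cells (0.002). The median in CaMKII positive cells turned with single libraries, being 0.16 without sham mouse 16, 0.11 without burn mouse 20, 0.04 without burn mouse 24, 0.03 without sham mouse 18 and -0.18 without burn mouse 2 or sham mouse 8, and in double-positive cells it lay between -0.02 and 0.05 when 1 mouse was left out. Clock differed by 0.02 ± 0.07 in double-positive cells, by -0.01 ± 0.10 in CD11b-positive cells and by 0.11 ± 0.07 in ACSA2-positive cells. None of the list of 21 was called in any population, and those with the smallest unadjusted p were Arntl, which codes for BMAL1, in double-positive cells (log2FC = 0.30, p = 0.0113) and in CD11b-positive cells (0.31, p = 0.0285), Arntl2 in ACSA2-positive cells (0.68, p = 0.0197) and Npas2, a relative of Clock, in CaMKII positive cells (0.57, p = 0.0377).

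**Figure D3:**
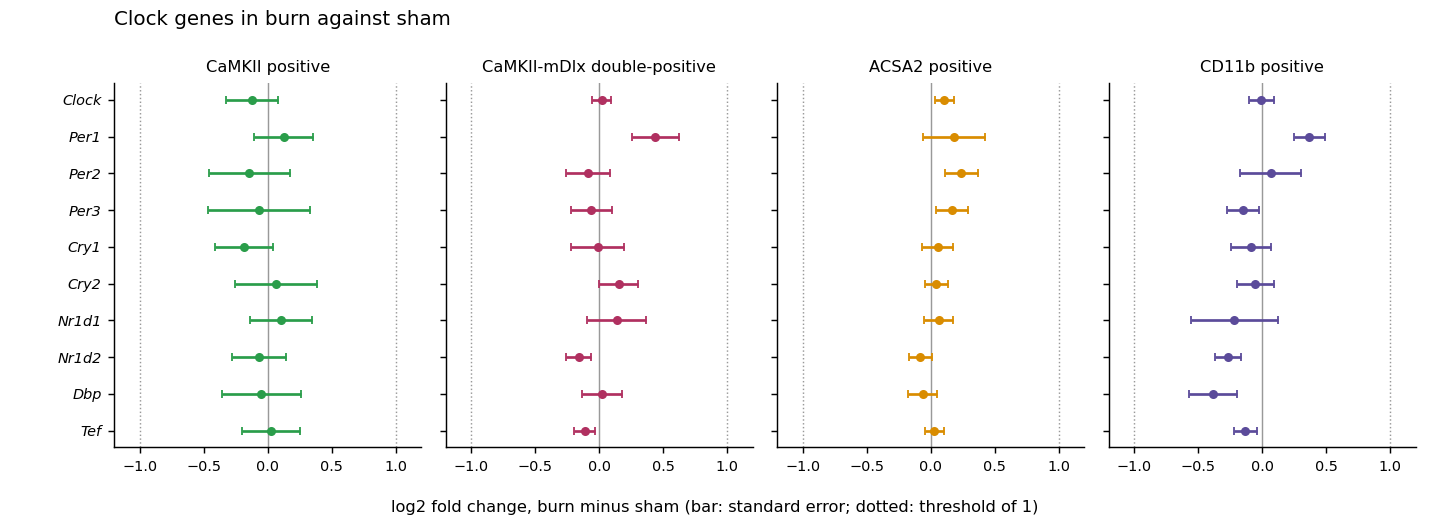
Difference of burn minus sham (log2FC with SE, batch as covariate) of the 10 clock genes in the 4 populations, with the call threshold of 1 in either direction. Every value lies inside the threshold, the farthest from 0 being Per1 in double-positive cells at 0.44.

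Whether the burn minus sham difference itself differed between populations was tested with mouse as a block. Between CD11b-positive and ACSA2-positive cells, no member and 0 genes were called, and 2 members had an unadjusted p under 0.05 (3.19% of all genes), Dbp with -0.39 ± 0.16 (p = 0.0283) and Per3 with -0.37 ± 0.16 (p = 0.0344) on the log2 scale, both at an edgeR p.adj of 1. Without the mouse block, 0 members had an unadjusted p under 0.05 in this pair, while the number of all genes that did rose from 978 to 2685 of 30696. Between CaMKII positive and double-positive cells no member reached an unadjusted p under 0.05 (1.45% of all genes).

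The third question was whether a mouse with a high level of a clock gene in one population had a high level in the others. Only batch 3 had at least 6 mice in every population, so its 10 mice were used, 8 of them with a CaMKII positive library. Dbp shows what was compared. Mouse 16 (sham) held the highest Dbp level in ACSA2-positive (200.4 CPM), CD11b-positive (17.6 CPM) and CaMKII positive cells (170.1 CPM) and the second highest in double-positive cells (20.3 CPM). Mouse 22 (burn) ranked 2, 3 and 2 in the same 3 populations, with 190.5, 16.3 and 129 CPM, and was highest in double-positive cells with 21.0 CPM. Mouse 24 (burn) was lowest in CD11b-positive cells (6.31 CPM) and ninth of 10 in ACSA2-positive cells (126 CPM). Not all mice kept their rank: mouse 19 (sham) was second in CD11b-positive cells (17.1 CPM) but eighth in ACSA2-positive (130 CPM) and ninth in double-positive cells (13.2 CPM).

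**Figure D4:**
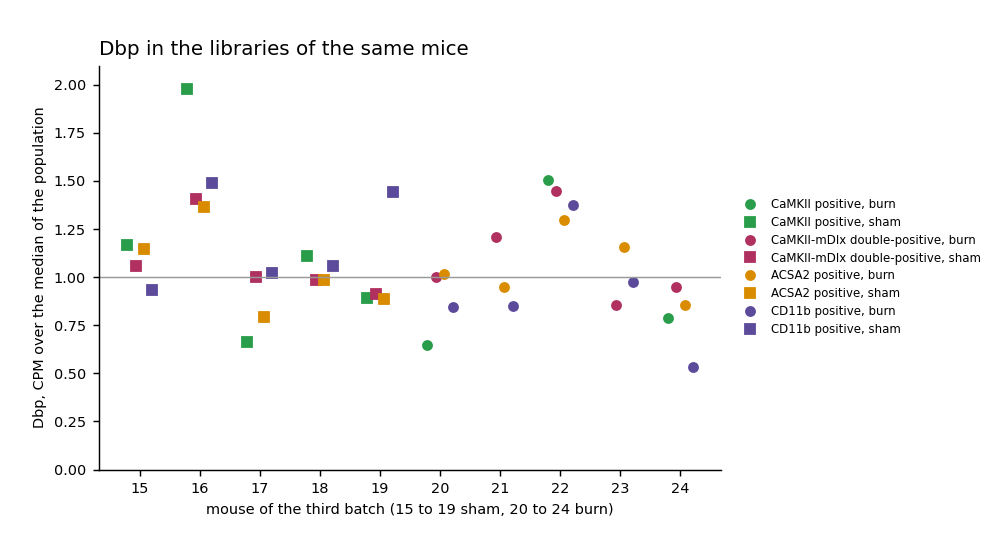
Dbp of each mouse of batch 3 in the 4 populations, as CPM over the median of the population (linear axis). Mice are along the horizontal axis and populations are point colours, so levels cannot be compared between populations here. Mice 16 and 22 are among the 3 highest in every population, and mice 21 and 23 have no CaMKII positive library.

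Over the 10 members and 6 pairs of populations, 60 relations were computed on log2(CPM + 0.5), and 42 of the Pearson correlations were positive. Positive were 7 of 10 members between CaMKII positive and ACSA2-positive cells (63.0% of all genes), 9 between double-positive and CD11b-positive cells (58.5%), 7 between CaMKII positive and CD11b-positive cells (55.7%), 7 between double-positive and ACSA2-positive cells (50.5%), 6 between CaMKII positive and double-positive cells (53.1%) and 6 between ACSA2-positive and CD11b-positive cells (55.7%). None passed p.adj of at most 0.05 by permutation with Benjamini-Hochberg adjustment (the lowest p.adj was 0.179), 12 had an unadjusted permutation p under 0.05, and 4 reached r = 0.8. Of the 12, 6 were between CaMKII positive and ACSA2-positive cells, with r of 0.72 or more, a distance from 0 that 6.18% of genes reached in either direction. Another 3 were between double-positive and CD11b-positive cells, with r of 0.67 or more (4.99% of genes in either direction), and 1 each was between CaMKII positive and double-positive cells (r = 0.82, 1.54%), double-positive and ACSA2-positive cells (r = -0.65, 4.93%) and ACSA2-positive and CD11b-positive cells (r = -0.61, 6.63%). Of the 4, 2 concerned Dbp. Between CaMKII positive and ACSA2-positive cells, Dbp had r = 0.87 (exact permutation p = 0.00595, p.adj = 0.179, n = 8) and Spearman's rho = 0.76 (exact permutation p = 0.0368, p.adj = 0.383), and r was 0.97 without the 2 mice farthest from the median. Between CaMKII positive and double-positive cells, Dbp had r = 0.82 (exact permutation p = 0.0136, p.adj = 0.192, n = 8) and rho = 0.57 (p = 0.151, p.adj = 0.467), and r was 0.76 without 2 mice.

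Nr1d1 reached r = 0.84 between double-positive and CD11b-positive cells (permutation p = 0.00307, p.adj = 0.179, n = 10), with rho = 0.75 (p = 0.0176, p.adj = 0.348), and r was 0.78 without the 2 mice farthest from the median. Nr1d2 reached r = 0.84 between CaMKII positive and ACSA2-positive cells (exact permutation p = 0.0152, p.adj = 0.192, n = 8), with rho = 0.64 (p = 0.0962, p.adj = 0.412), and r was 0.68 without 2 mice. Among all genes with a mean of at least 1 CPM in both populations, r of at least 0.8 was reached by 2.32% between CaMKII positive and ACSA2-positive cells (2 of 10 members, 2 to 4 when 1 mouse was left out, and 6 with treatment means removed, against 3.65% of genes), 1.29% between CaMKII positive and double-positive cells (1 member, none without mouse 16 or with TMM-scaled CPM), 1.18% between double-positive and CD11b-positive cells (1 member, none without mouse 15 and 2 without mouse 17, 18 or 20), 1.16% between CaMKII positive and CD11b-positive cells, 0.467% between ACSA2-positive and CD11b-positive cells and 0.429% between double-positive and ACSA2-positive cells (no member in these 3, but 1 in the first without mouse 18 and 1 in the last without mouse 23).

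Between CaMKII positive and ACSA2-positive cells the members' median was 0.74 (0.15 over all genes) and between double-positive and CD11b-positive cells 0.49 (0.08 over all genes). In the other 4 pairs it lay between 0.16 and 0.30. Leaving out 1 mouse kept the first of these between 0.69 and 0.78, but the order of the others turned on single mice. Without mouse 22 the median between double-positive and CD11b-positive cells was 0.29, below the 0.36 between CaMKII positive and CD11b-positive cells, which in turn was 0.11 without mouse 16 and 0.45 without mouse 19. Without mouse 16 the median between CaMKII positive and double-positive cells was -0.11, and without mouse 22 that between ACSA2-positive and CD11b-positive cells was -0.01. ACSA2-positive and CD11b-positive cells, which came from the same tissue of each mouse, had a median of 0.16 (0.05 over all genes), and Per2 was negative there (r = -0.61, permutation p = 0.0443, p.adj = 0.222, n = 10; rho = -0.67, p = 0.0386, p.adj = 0.383; r = -0.66 without 2 mice). The 2 libraries of a mouse share the batch, and those from the same region also share the dissected tissue. Members share the mice, so the 60 relations are not independent.

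The fourth question was whether the members varied together from mouse to mouse within a population. Dbp was taken as the reference and 36 relations were computed in batch 3. In CaMKII positive cells 6 of 9 members had r of at least 0.8 with Dbp, a level reached by 6.06% of 17489 genes, and the median r was 0.85 over the members and 0.11 over all genes. The count was 3 without mouse 16, 5 or 6 when any other mouse was left out, and 2 with the log2 total count regressed out of both genes. Nr1d1 had the highest r with Dbp in batch 3. With all batches and batch means removed (n = 10 libraries), its r was 0.89, below Cry2 (0.91), Per3 (0.91) and Nr1d2 (0.90). The Nr1d1 levels were 194, 267, 144, 192 and 164 CPM in sham mice 15 to 19 and 147, 213 and 152 CPM in burn mice 20, 22 and 24, beside Dbp levels of 100.2, 170.1, 57.0, 95.2 and 76.7 CPM and 55.8, 129 and 67.7 CPM. Mice 16 and 22 were highest in both genes and mice 17 and 20 lowest.

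The correlation of Nr1d1 with Dbp in CaMKII positive cells was r = 0.99 (exact permutation p = 4.96e-05, p.adj = 0.00179, n = 8), with rho = 0.98 (p = 0.000397, p.adj = 0.0143), and r remained 0.99 without the 2 mice farthest from the median. Nr1d1 ranked 1 of all 17489 genes by r with Dbp. Cry2 (r = 0.91, rho = 0.86), Per3 (r = 0.90, rho = 0.90) and Nr1d2 (r = 0.89, rho = 0.71) also passed for r, each at p.adj = 0.0297 by exact permutation, and not for rho, where the p.adj were 0.101, 0.0821 and 0.214. Without the 2 farthest mice their r were 0.87, 0.79 and 0.77. Tef (r = 0.85, p.adj = 0.0521) and Per2 (r = 0.81, p.adj = 0.0679) did not pass, Clock was negative (r = -0.75, p.adj = 0.107), and Per1 had r = 0.05.

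In these CaMKII positive libraries Dbp was also related to depth, with r = -0.76 against the log2 total count (exact permutation p = 0.0279, n = 8; rho = -0.81, p = 0.0218) and r = -0.68 against the summed endothelial markers (exact permutation p = 0.0636), while r was 0.37 against the summed astrocyte markers (exact permutation p = 0.374). Over the 44 relations of Dbp with depth and marker sums in the 4 populations, none had a p.adj of at most 0.05, the lowest being 0.307. With the total count regressed out of both genes, a choice made after seeing the data, Nr1d1 kept r = 0.98 (exact permutation p.adj = 0.00357), whereas Cry2 (r = 0.82), Per3 (r = 0.75) and Nr1d2 (r = 0.73) were at p.adj = 0.169. Leaving out mouse 16, 17, 20 or 22 left Nr1d1 as the only relation that passed with 7 mice. Without mouse 16, Cry2, Per3 and Nr1d2 had r = 0.83, 0.84 and 0.79, and without mouse 17, 20 or 22 their r stayed between 0.88 and 0.93. Thra, which overlaps Nr1d1, had r = -0.33 with Nr1d1 and Sphk2, which overlaps Dbp, had r = 0.34 with Dbp in the same 8 libraries, given as a description.

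**Figure D5:**
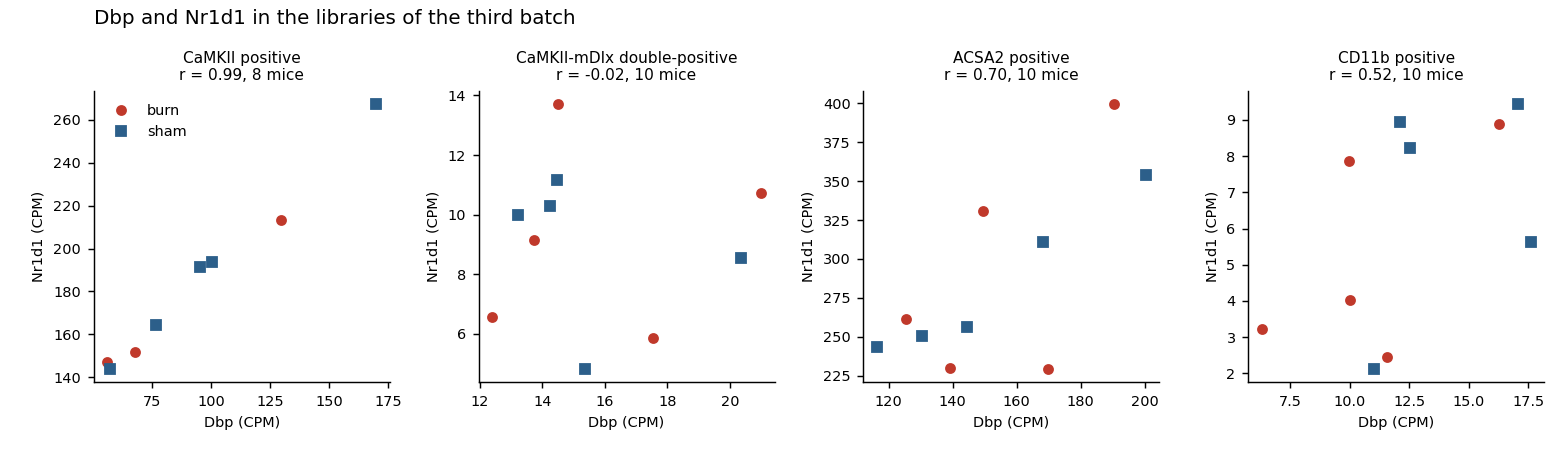
Nr1d1 against Dbp (CPM, linear axes) in the libraries of batch 3, by population, each point being 1 mouse, burn or sham. The r values were computed on log2(CPM + 0.5). The 8 CaMKII positive libraries lie close to a line (r = 0.99), and the 10 ACSA2-positive (r = 0.70), CD11b-positive (r = 0.52) and double-positive libraries (r = -0.02) are more scattered.

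In the other populations no relation with Dbp passed the adjustment in batch 3. With all batches and batch means removed, 3 passed there, Per1 (r = -0.70, permutation p.adj = 0.0205) and Nr1d2 (r = 0.68, p.adj = 0.0235) in CD11b-positive cells and Nr1d2 in ACSA2-positive cells (r = 0.60, p.adj = 0.0450), and with treatment means removed Cry2 passed in double-positive cells (r = -0.78, p.adj = 0.0261). When 1 mouse was left out, relations that passed were Nr1d1 (without mouse 23, r = 0.86, p.adj = 0.0238) and Cry2 (without mouse 24, r = 0.86, p.adj = 0.05) in ACSA2-positive cells, Per1 in CD11b-positive cells (without mouse 15, r = -0.81, p.adj = 0.0476) and Cry2 in double-positive cells (without mouse 21, r = -0.86, p.adj = 0.0234). In batch 3, in ACSA2-positive cells the closest were Cry2 (r = 0.74, permutation p.adj = 0.0657, n = 10), Nr1d1 (r = 0.70, p.adj = 0.1004) and Nr1d2 (r = 0.67, p.adj = 0.110), and without the 2 farthest mice these were 0.42, 0.30 and 0.56. In CD11b-positive cells Per1 ran against Dbp (r = -0.77, permutation p.adj = 0.0537; rho = -0.78, p.adj = 0.101; r = -0.67 without 2 mice). Nr1d2 (r = 0.65, permutation p.adj = 0.110) and Per3 (r = 0.62, p.adj = 0.139) ran with Dbp there, but their r were 0.14 and 0.22 without the 2 farthest mice. In double-positive cells Cry2 had r = -0.76 (permutation p.adj = 0.0538; rho = -0.52, p.adj = 0.301), and r was -0.22 without the 2 farthest mice, between -0.86 and -0.57 when 1 mouse was left out, and -0.29 over the 16 libraries of all batches. Dbp in CD11b-positive cells also ran with the summed markers of excitatory neurons (r = 0.71, permutation p = 0.0211, p.adj = 0.307; rho = 0.61, p = 0.0657), oligodendrocytes (r = 0.68, p = 0.0261, p.adj = 0.307; rho = 0.56, p = 0.0966) and oligodendrocyte precursors (r = 0.69, p = 0.0246, p.adj = 0.307; rho = 0.77, p = 0.0124). The precursor sum was low there, with a median of 3.63 CPM. Dbp ran against the summed markers of border macrophages or monocytes (r = -0.59, permutation p = 0.0709, p.adj = 0.395; rho = -0.68, p = 0.0351). The part of these markers in the relations with Dbp was not tested. With all 10 mice no member reached r = 0.8 in these 3 populations, a level reached by 0.458% of genes in double-positive, 0.424% in ACSA2-positive and 0.201% in CD11b-positive cells.

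The genes whose pattern over mice was most like that of Dbp in double-positive, ACSA2-positive and CD11b-positive cells at once were ranked by the lowest of the 3 Pearson correlations over the 10 mice of batch 3, among 9121 genes with a mean of at least 5 CPM in each. The median of this measure over all genes was -0.29. The highest were Tmem101 (0.60), Synj2bp (0.54), Fat3 (0.53), Umad1 (0.51), Rnf180 (0.48), Sdhc (0.47), Lactb2, Msi2 and Amer1 (each 0.46) and Atg7 (0.45). Nr1d2 was the clock gene nearest to Dbp, at rank 83 (lowest r = 0.34), followed by Tef at rank 204 (0.26) and Per3 at rank 797 (0.09), and no member was among the first 20. The genes that ran most against Dbp, by the highest of their 3 correlations, were Cbx7 (-0.58), Fcf1 (-0.56), Nfya, Zfp335 and H2-Q4 (each -0.55). These ranks are a description over 10 mice that share their libraries with every other gene.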

How the data were processed

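RNA of sorted cells was sequenced from stranded libraries made after removal of ribosomal RNA. Per the methods, reads were trimmed with fastp, aligned with STAR 2.7.1 and counted with GenomicAlignments 1.26.0, and the deposited values are unnormalised read counts per gene, in 1 table for each population. The submitters' processing notes name GRCm39 and mm10. The strand setting of the counting is not given in the sources used here.

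Here, CPM were computed as counts over the total count of the library, 13346143 to 134703744. Mouse 3 (4 libraries) and the double-positive library of mouse 8 were left out, leaving 58 of 63 libraries. Depth limits what a count of 0 allows to 0.0223 to 0.225 CPM. Gene identifiers were given symbols from a table of gene names, and levels per kb used exon lengths of a GRCm38 annotation. Genes with at least 10 counts in total were tested with the quasi-likelihood test of edgeR 4.0.16 (R 4.3.3) after TMM scaling, with p-values adjusted by Benjamini-Hochberg over all genes tested (p.adj), and called where p.adj did not exceed 0.05 and the log2FC was 1 or more in either direction (interactions by p.adj alone). Burn was compared with sham in each population with batch as covariate. Populations were compared with mouse as a block, since the study's list of animals shows that libraries of 1 number are from the same mouse, and an interaction term tested whether the burn difference differed between populations. Over 74 such pairs of libraries, the correlation of their deviations from the group means had a median of 0.082 (range -0.293 to 0.382, 35 above 0.1). Correlations over mice used log2(CPM + 0.5), Pearson's r and Spearman's rho, two-sided permutation tests (exact below 10 mice, otherwise 100000 resamples; Python 3.11.15, scipy 1.17.1) and adjustment over the 60 or 36 relations. The scripts were tested on simulated data.

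Alternatives were DESeq2 1.42.0, filterByExpr or no filter, all deposited libraries, no batch term, batch 3 alone, no replicate block, library-size scaling, TMM-scaled CPM, a pseudocount of 0.1, treatment means removed, all batches with batch means removed, and each mouse left out. Named were the 10 members, at most 3 genes per comparison with the smallest p from a list of 21 further clock genes, the 10 genes most like Dbp and the 5 most opposed over 3 populations, and genes whose exons overlap a member on the other strand. Members and lists were chosen with earlier results of these data known. No 2 libraries held identical counts. Each library came from its own mouse within a population, and p-values measure the spread between these mice.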

Additional observations from a re-analysis of the deposited data

Results flagged for a closer look

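Within 80 groups of one gene, population and treatment, 3 had a library set apart from the others by more than the 95% limit of Dixon's test, which chance gives for about 1 in 20 groups. Clock in CD11b-positive burn mice was 78.8 CPM in mouse 2 and 101 to 120 CPM in the other 7. Per1 in ACSA2-positive sham mice was 323 CPM in mouse 12 and 66.8 to 117 CPM in the others. Cry2 in double-positive burn mice was 11.0 CPM in mouse 22 and 18.1 to 22.9 CPM in the others.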

How the results depend on the processing

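Burn against sham gave 0 called members in every population under every alternative run, while the sign of the uncalled log2FC changed in at least 1 alternative for 23 of 40 values. The numbers of members called between populations were unchanged without the replicate block, at 9 (CD11b-positive against ACSA2-positive), 6 (CaMKII positive against double-positive), 0 (CaMKII positive against ACSA2-positive) and 0 (double-positive against CD11b-positive), although all genes called rose from 14277 to 16530, from 10492 to 11962, from 3302 to 4320 and from 1092 to 1627. Leaving out 1 mouse gave 0 to 1 called members for CaMKII positive against ACSA2-positive cells (Dbp, without mouse 16). Interactions stayed at 0 members, with and without the replicate block. For all genes after burn, against 0 in each population, DESeq2 called 3 (CaMKII positive), 2 (double-positive), 27 (ACSA2-positive) and 80 (CD11b-positive), no filter 14 in double-positive and 4 in ACSA2-positive cells, and all deposited libraries 136 in double-positive cells, where the left-out library of mouse 8 held 331215 counts. Of the 60 relations between populations, 0 passed, against 1 with all batches (Nr1d1 in double-positive and CD11b-positive cells, r = 0.85, permutation p.adj = 0.0084) and 0 to 1 when 1 mouse was left out (Dbp in CaMKII positive and ACSA2-positive cells without mouse 20). Of the 36 relations with Dbp, 4 passed, all in CaMKII positive cells, against 10 with all batches (7 in CaMKII positive, 2 in CD11b-positive and 1 in ACSA2-positive cells), 6 with treatment means removed, 1 with the log2 total count regressed out, and 1 to 7 when 1 mouse was left out, with 1 without mouse 16, 17, 20 or 22 and 7 without mouse 15. The cause of these changes was not tested. Precision is limited where correlations rest on 8 or 10 mice, and where comparisons with burn rest on the 4 burn libraries of CaMKII positive cells.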

Other observations

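The 4 libraries of mouse 3, left out above, lay within the range of the libraries used for all 10 clock genes. In the double-positive library of mouse 8, 9 of the 10 clock genes were at 0.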
